A study of Homo sapiens with 2 samples.

Results

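Transcripts of 40 genes that encode SR proteins, hnRNPs and other regulators of splicing were examined in 22Rv1 cells with and without depletion of EIF3F. The genes were taken by symbol from a table of 57351 gene symbols, all 40 were found, and 39 averaged 1 TPM or more across the libraries and are called measured. 22Rv1 is a human prostate cancer cell line, and EIF3F encodes the f subunit of the translation initiation factor eIF3. The control cells carried a short hairpin RNA vector control (shCON) and the depleted cells a hairpin against EIF3F (shEIF3F). Total RNA was sequenced from 1 library per group. No difference below therefore has a replicate check, no p-value or error could be given, and EIF3F depletion cannot be told apart from anything else the hairpin may do.

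SR proteins carry one or more RNA recognition motifs and a tail rich in arginine and serine, bind exonic enhancers and help the spliceosome to recognise nearby splice sites. Heterogeneous nuclear ribonucleoproteins (hnRNPs) package nascent transcripts and often oppose SR proteins at the same exons. The balance between the families is known to set exon choice in epithelial and cancer cells, and many of these genes limit their own level through alternative exons that send the transcript to nonsense-mediated decay. Values are TPM, a transcript abundance per transcript length and per library total, so levels can be compared between genes. The log2 ratio is log2 of (shEIF3F TPM + 1) over (shCON TPM + 1), and a gene was called at least 2-fold lower or higher at -1 or less or at 1 or more. This is a fixed rule of size, not a test.

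EIF3F stood at 991 TPM in the control and 17.0 TPM in the depleted cells, the direction its label gives. Summed TPM was 992454 in shCON and 994055 in shEIF3F, and the depth in reads is unknown. Over the 13309 genes tested the median log2 ratio was -0.36. Of the library total, 45.4% in shCON and 59.7% in shEIF3F came from the 100 most abundant genes, and none of the 40 genes was among them. Higher genes made up 24.9% of all genes past 2-fold as deposited and 47.9% after the median of all genes had been subtracted from each ratio (centring), so the counts of each gene list with calls are also given after centring. All 10 luminal prostate markers were listed at a mean of 1 TPM or more. The summed TPM of 4 fibroblast markers was 39.9 in shCON and 26.9 in shEIF3F, mostly LUM and DCN, that of the 2 leukocyte markers 1.31 and 5.37, nearly all CD68, and that of the 3 endothelial markers 0.01 and 0.05, with VWF and CDH5 listed at 0. The part of these cell type markers in the results was not tested.

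The upstream sequences of the 3 members with the lowest ratios among those matched to RefSeq (HNRNPM, HNRNPA0 and SRSF7) are shown first, beside that of HNRNPU, the most abundant member with a higher value in shEIF3F. Each is the 250 bases before the annotated gene start, written 5′ to 3′ on the gene's strand, from RefSeq on GRCh38.p14, where 32 of the 39 measured members had an entry and the first listed start was used. Capitals mark matches on either strand to CACGTG (the E-box bound by MYC and related factors), CCGGAAG (ETS factors), GGGCGG (the GC box), CCAAT, TTTNNCGC (an E2F-like string) and TATAAA.
HNRNPM (chr19:8444725-8444974, plus strand): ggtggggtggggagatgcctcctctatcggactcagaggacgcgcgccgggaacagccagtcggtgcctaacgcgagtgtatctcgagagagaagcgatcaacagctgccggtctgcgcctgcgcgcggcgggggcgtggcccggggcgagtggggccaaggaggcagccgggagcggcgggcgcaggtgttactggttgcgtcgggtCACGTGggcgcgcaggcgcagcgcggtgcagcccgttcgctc
HNRNPA0 (chr5:137754364-137754613, minus strand): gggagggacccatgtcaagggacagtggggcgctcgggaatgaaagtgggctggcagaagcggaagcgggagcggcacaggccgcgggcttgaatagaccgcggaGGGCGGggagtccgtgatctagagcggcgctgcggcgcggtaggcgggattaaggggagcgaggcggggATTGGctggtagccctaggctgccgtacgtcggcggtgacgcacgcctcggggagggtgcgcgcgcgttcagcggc
SRSF7 (chr2:38751495-38751744, minus strand): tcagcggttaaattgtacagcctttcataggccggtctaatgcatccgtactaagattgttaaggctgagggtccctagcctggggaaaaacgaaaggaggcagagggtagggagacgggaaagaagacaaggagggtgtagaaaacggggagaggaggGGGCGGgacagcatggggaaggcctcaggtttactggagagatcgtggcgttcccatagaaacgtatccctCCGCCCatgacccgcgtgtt
HNRNPU (chr1:244864544-244864793, minus strand): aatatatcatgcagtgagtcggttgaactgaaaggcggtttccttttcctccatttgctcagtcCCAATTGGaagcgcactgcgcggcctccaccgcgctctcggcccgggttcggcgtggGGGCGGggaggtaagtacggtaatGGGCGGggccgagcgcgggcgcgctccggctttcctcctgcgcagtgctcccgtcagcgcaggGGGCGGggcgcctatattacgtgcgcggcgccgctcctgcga
In these windows HNRNPM held 1 E-box and no other match, HNRNPA0 held 1 GC box and 1 CCAAT, SRSF7 held 2 GC boxes, and HNRNPU held 3 GC boxes and 2 CCAAT matches that overlap on opposite strands. Among the 32 member promoters, CCAAT was present in 16 (50%), against 35.6% of 9310 promoters of genes tested and 33.0% of all 27305 promoters. TTTNNCGC was present in 7 (21.9%), against 9.24% and 5.93%. The GC box was found in 20 (62.5%, against 68.7% and 42.3%), TATAAA in 7 (21.9%, against 4.91% and 11.1%), the E-box in 5 (15.6%, against 9.36% and 6.49%) and CCGGAAG in 4 (12.5%, against 16.7% and 8.82%). Of the 32 matched members, 13 were at least 2-fold lower. TTTNNCGC was in 1 of these 13 and 6 of the other 19, CCAAT in 6 and 10, and the GC box in 6 and 14. TATAAA was in 4 and 3, the E-box in 2 and 3, and CCGGAAG in 2 and 2. A match describes letters in a window and does not show a bound site.

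Relative to shCON, 15 of the 39 measured members (38.5%) were at least 2-fold lower and 0 at least 2-fold higher. Over all genes tested, the corresponding shares were 25.5% lower and 8.45% higher. The members' median log2 ratio was -0.88, from -3.34 for HNRNPM to 0.68 for ESRP2, and 32 of the 39 had a ratio below 0. After centring, 9 were lower and 2 higher, against 16% and 14.7% of all genes, and the members' median was -0.53. After rescaling of the libraries without the 100 most abundant genes, 9 were lower and 1 higher, against 16.2% and 14.8%. With the trend of ratios with transcript GC content removed, 13 were lower and 1 higher, against 14% and 13.3%. Summed over all 40 genes, the level was 6425 TPM in the control and 3800.3 TPM in the depleted cells, or 59.1% of the control sum. The log2 ratio of these sums, formed without the added 1 TPM, was -0.76. The median of -0.36 over all genes is one of single-gene ratios, so the measures are unlike. The 40 genes made up 0.647% of the library total in shCON and 0.382% in shEIF3F. The sums are as deposited, and the 100 most abundant genes, none of them a member, held 45.4% of shCON and 59.7% of shEIF3F. In such bulk samples, fewer cells of one kind, less RNA per cell and a larger library share of other transcripts cannot be told apart. Lower values thus predominated, but 24 of the 39 genes lay within 2-fold, and the families differed in how far they stood from the control.

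**Figure D1:**
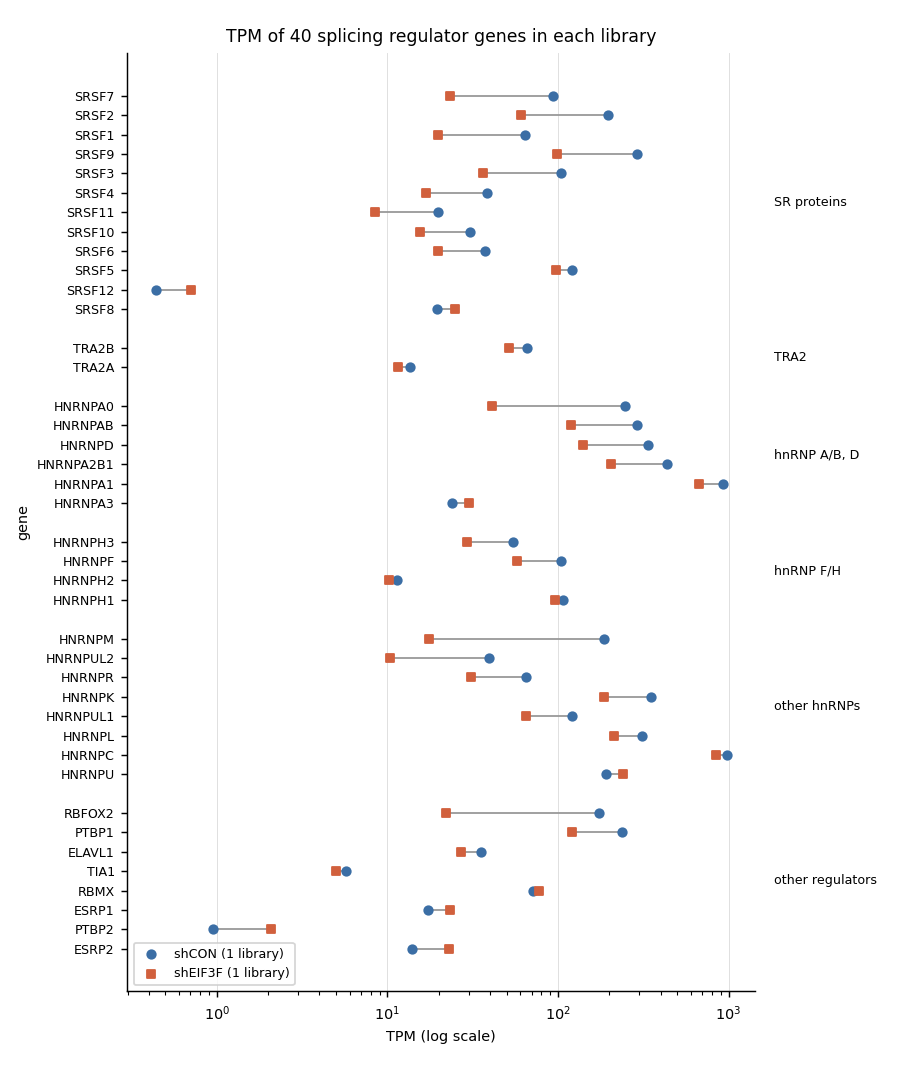
TPM on a log axis for each of the 40 genes (rows, grouped by family and ordered by log2 ratio), with a circle for the shCON library and a square for the shEIF3F library. The longest lines belong to HNRNPM, RBFOX2 and HNRNPA0, whose shEIF3F values lie far to the left, while HNRNPC, HNRNPH1 and RBMX lie close together.

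Among the SR proteins, 7 of 11 measured genes (63.6%) were at least 2-fold lower and 0 higher, against 25.5% and 8.45% of all genes, with a median log2 ratio of -1.14. After centring 5 (45.5%) were lower and 0 higher, against 16% and 14.7% of all genes. SRSF7, an SR protein with a zinc knuckle that also takes part in mRNA export, stood at 94.0 TPM in the control and 23.2 TPM in the depleted cells (log2 ratio -1.97). SRSF2, known for its recurrent mutations in myeloid malignancies, stood at 196 and 60.5 TPM (-1.68). SRSF1, the founding SR protein and a known oncoprotein, stood at 64.2 and 19.7 TPM (-1.65). In shEIF3F these genes thus stood at 24.7%, 30.8% and 30.7% of the control.

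SRSF9, which like SRSF1 carries a pair of RNA recognition motifs, was the most abundant SR transcript in both libraries, at 290.5 TPM in the control and 98.8 TPM in the depleted cells (log2 ratio -1.55). SRSF3, the smallest SR protein and an export adaptor like SRSF7, stood at 105 and 36.2 TPM (-1.51). These 5 genes, SRSF1, SRSF2, SRSF3, SRSF7 and SRSF9, were also the SR members still at least 2-fold lower after centring, when the family median was -0.78. SRSF4, a relative of SRSF5 and SRSF6, at 38.1 and 16.8 TPM (-1.14) and SRSF11 at 19.8 and 8.51 TPM (-1.13) were past 2-fold as deposited but not after centring (-0.78 and -0.77).

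The remaining SR genes lay within 2-fold. SRSF10, which represses splicing when it is dephosphorylated after heat shock, stood at 30.4 TPM in the control and 15.6 TPM in the depleted cells (log2 ratio -0.92), and SRSF6 at 37.4 and 19.7 TPM (-0.89). SRSF5 stood at 121 and 96.8 TPM (-0.32). SRSF8, a retrotransposed copy related to SRSF2, was the only measured SR gene with a higher value in shEIF3F, at 19.6 and 24.9 TPM (0.33), while its relative SRSF2 was lower. SRSF12 was listed at 0.44 and 0.71 TPM and was not measured.

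The summed level of the 12 SR genes was 1016 TPM in the control and 421 TPM in the depleted cells, 41.5% of the control. As a log2 ratio of sums, as deposited, this was -1.27. The median single-gene ratio over all genes, an unlike measure, was -0.36. The mix of SR transcripts differed as well. SRSF9 and SRSF2 together made up 47.9% of the SR sum in shCON and 37.8% in shEIF3F. SRSF5 made up 11.9% and 23.0%, and SRSF8 1.93% and 5.92%. SRSF5 was the third SR transcript in shCON and stood beside SRSF9 (23.4%) in shEIF3F. Shares within a library do not depend on a factor applied to the whole library, but the GC trend was not removed from them.

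**Figure D2:**
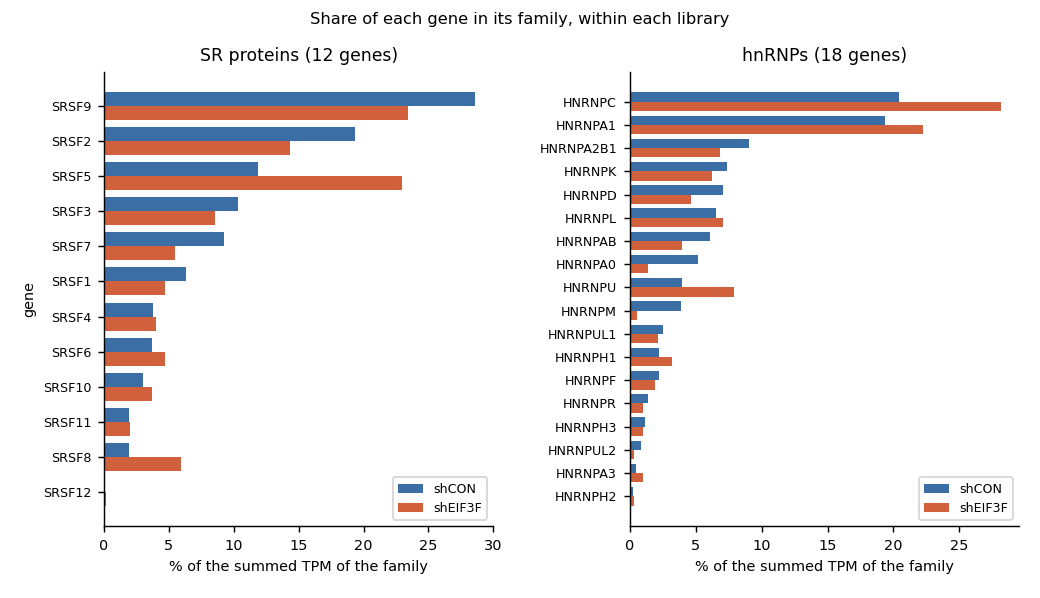
Share of the summed TPM of the family (percent, from 0) held by each of 12 SR genes (left) and 18 hnRNP genes (right) in shCON and shEIF3F, 1 library each. SRSF5 holds 11.9% of the SR sum in shCON and 23.0% in shEIF3F, and HNRNPC 20.4% and 28.1% of the hnRNP sum.

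Several SR values rest on exons that other genes share in GENCODE release 29, and no source used here says whether the counting used strand. The overlapping genes were picked out after their values were seen. Of SRSF1's exonic bases, 56.6% are shared with AC015813.2 on the same strand, listed at 5.68 and 6.39 TPM in shCON and shEIF3F. SRSF9 shares 46.2% with GATC (12.2 and 7.24 TPM) and SRSF2 36.7% with MFSD11 (9.5 and 11.7 TPM), both on the opposite strand. These overlapping genes stood below the SR gene in each library. In shEIF3F, however, AC015813.2 at 6.39 TPM stood beside SRSF1 at 19.7 TPM. How reads on the shared bases were split is unknown, so the SRSF1 ratio is uncertain.

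The transformer proteins TRA2A and TRA2B are SR-like activators that bind GAA-rich exonic enhancers. TRA2B stood at 66.1 TPM in the control and 51.8 TPM in the depleted cells (log2 ratio -0.35) and TRA2A at 13.5 and 11.5 TPM (-0.21). Both lay within 2-fold and within 0.15 of the median of all genes. After centring their median was 0.08. TRA2B remained the more abundant copy, at 4.89 times TRA2A in shCON and 4.49 times in shEIF3F.

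The 18 hnRNP genes were all measured, and 7 of them (38.9%) were at least 2-fold lower and 0 higher, against 25.5% and 8.45% of all genes, with a median log2 ratio of -0.88. After centring 3 (16.7%) were lower and 0 higher, so the share of lower hnRNPs was close to the 16% of all genes, and the median was -0.52. Their summed level was 4773 TPM in the control and 3014 TPM in the depleted cells, 63.2% of the control. As a log2 ratio of sums, as deposited, this was -0.66. The median single-gene ratio over all genes, an unlike measure, was -0.36. The 2 most abundant hnRNP genes, HNRNPC and HNRNPA1, together made up 39.8% of the hnRNP sum in shCON and 50.4% in shEIF3F.

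The A/B and D group holds the classic repressors of exon inclusion. Of its 6 genes, 4 (66.7%) were at least 2-fold lower and 0 higher, against 25.5% and 8.45% of all genes. HNRNPA0, an A/B protein that binds AU-rich elements and is encoded without introns, stood at 247 TPM in the control and 41.0 TPM in the depleted cells (log2 ratio -2.56). HNRNPAB stood at 289 and 119.7 TPM (-1.26), and HNRNPD, also called AUF1, a decay factor for AU-rich mRNAs, at 336 and 140.3 TPM (-1.26). HNRNPA2B1, which also sorts small RNAs and reads m6A-marked transcripts, stood at 433 and 206 TPM (-1.07). HNRNPA0 alone remained past 2-fold after centring (-2.20), where the group's median was -0.80. The group's share of lower genes was then 16.7%, close to the 16% of all genes.

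HNRNPA1, the best-known antagonist of SRSF1 in the choice of splice sites, stood at 925 TPM in the control and 671 TPM in the depleted cells (log2 ratio -0.46). HNRNPA3 was the only gene of the group with a higher value, at 24.0 and 30.2 TPM (0.32). Members of the group thus differed widely in ratio. HNRNPA0, with the lowest ratio of the group, was 10.3 times as abundant as HNRNPA3, with the highest, in shCON and 1.36 times in shEIF3F. The level of HNRNPA1 was 14.4 times that of SRSF1 in shCON and 34.1 times in shEIF3F. These values carry the uncertainty of SRSF1, whose exons are largely shared with AC015813.2.

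The F/H proteins bind runs of G and regulate both splicing and polyadenylation. None of the 4 genes was past 2-fold, as deposited or after centring. As deposited, 25.5% of all genes were lower and 8.45% higher. HNRNPH3 stood at 54.7 TPM in the control and 29.2 TPM in the depleted cells (log2 ratio -0.88) and HNRNPF at 105 and 57.3 TPM (-0.86). HNRNPH1 stood at 106 and 96.5 TPM (-0.14) and HNRNPH2 at 11.4 and 10.2 TPM (-0.14), so the H1 to H2 ratio was 9.35 in shCON and 9.44 in shEIF3F. The HNRNPH2 value is uncertain, since 16.3% of its exonic bases are shared on the same strand with the readthrough gene RPL36A-HNRNPH2, which was listed at 397 TPM in the control and 2.6 TPM in the depleted cells (-6.79). RPL36A-HNRNPH2 was named after its values were seen, and it also shares sequence with RPL36A.

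Of the 8 remaining hnRNPs, 3 (37.5%) were at least 2-fold lower and 0 higher, against 25.5% and 8.45% of all genes. Their log2 ratios ran from -3.34 to 0.33, with a median of -0.89. After centring 2 (25%) were lower and 0 higher, against 16% and 14.7% of all genes. HNRNPM, which binds GU-rich sequences and is known to favour mesenchymal splice forms such as that of CD44, had the lowest ratio of all 40 genes. It stood at 187 TPM in the control and 17.5 TPM in the depleted cells, 9.4% of the control (-3.34, or -2.98 after centring). Of all genes tested, 1.28% had a ratio at or below it. Its rank among the 40 genes by TPM was 13 in shCON and 31 in shEIF3F.

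HNRNPUL2, a relative of HNRNPU with roles at DNA breaks, stood at 39.4 TPM in the control and 10.4 TPM in the depleted cells (log2 ratio -1.82). The readthrough gene HNRNPUL2-BSCL2, which shares 44.1% of HNRNPUL2's exonic bases, stood at 2.88 and 0.34 TPM (-1.53). HNRNPUL1 was within 2-fold, at 121 and 65.4 TPM (-0.87). HNRNPR, which takes part in axonal mRNA transport, stood at 64.7 and 31.1 TPM (-1.03, within 2-fold after centring at -0.68). The UL1 to UL2 ratio was 3.06 in shCON and 6.27 in shEIF3F.

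HNRNPU, a scaffold protein of nuclear RNA and chromatin, was the only one of the 8 with a higher value, at 191 TPM in the control and 239 TPM in the depleted cells (log2 ratio 0.33). By TPM it ranked 12 among the 40 genes in shCON and 3 in shEIF3F. Of its exonic bases, 15.6% are shared with COX20 on the opposite strand, which was listed at 23.0 and 41.4 TPM. HNRNPC, which masks cryptic exons in Alu elements by binding runs of U, was the most abundant of the 40 genes in both libraries, at 976 and 848 TPM (-0.20).

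HNRNPK, a poly(C)-binding protein, stood at 352 TPM in the control and 187 TPM in the depleted cells (log2 ratio -0.91), and HNRNPL, which binds CA repeats, at 312 and 214 TPM (-0.54). Both were within 2-fold. For HNRNPL, 8.22% of exonic bases are shared on the same strand with AC008982.1, a gene listed at 0 in shCON and at 16.8 TPM in shEIF3F and named after its values were seen.

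The other regulators were split between 1 gene of 8 (12.5%) far below the control and 7 within 2-fold, with a median log2 ratio of -0.03. Over all genes 25.5% were at least 2-fold lower and 8.45% higher. After centring 1 (12.5%) was lower and 2 (25%) higher, against 16% and 14.7% of all genes, and the median was 0.33. RBFOX2, which binds GCAUG near alternative exons and is active in both epithelial and mesenchymal programmes, stood at 175 TPM in the control and 22.0 TPM in the depleted cells, 12.6% of the control (-2.94, or -2.58 after centring). PTBP1, the polypyrimidine tract binding protein that represses neuronal exons, stood at 237 and 121.5 TPM (-0.96). ELAVL1, also called HuR, which stabilises AU-rich mRNAs, stood at 35.5 and 26.8 TPM (-0.39), and TIA1, an activator of weak 5′ splice sites and a stress granule protein, at 5.76 and 5.02 TPM (-0.17).

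The epithelial splicing regulators ESRP1 and ESRP2 had higher values in shEIF3F. ESRP1 stood at 17.2 TPM in the control and 23.4 TPM in the depleted cells (log2 ratio 0.42) and ESRP2 at 13.9 and 23.0 TPM (0.68). ESRP2 was past 2-fold after centring (1.04), after rescaling without the 100 most abundant genes (1.09) and with the GC trend removed (1.41). RBMX, the X-linked hnRNP G, stood at 71.2 and 77.3 TPM (0.12). PTBP2, the neuronal paralog whose transcript PTBP1 is known to send to decay, was listed at 0.95 and 2.07 TPM (0.65, and 1.01 after centring), a low level for which the added 1 TPM understates the ratio.

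Ratios between some pairs of regulators, formed within each library from TPM alone, do not depend on a factor applied to the whole library. Removing the GC trend, however, can change them. RBFOX2 was 10.2 times as abundant as ESRP1 in shCON and 0.939 times in shEIF3F. HNRNPM, which is known to compete with ESRP1 at GU-rich sites, stood at 10.8 times ESRP1 in shCON and 0.749 times in shEIF3F. PTBP1 stood at 249.6 times PTBP2 in shCON and 58.7 times in shEIF3F, with PTBP2 at only 0.95 and 2.07 TPM. With the GC trend removed, the log2 ratios were -0.23 for PTBP1 and 0.58 for PTBP2, against -0.96 and 0.65 as deposited. HNRNPM and RBFOX2 thus stood far above both ESRP genes in shCON, whereas in shEIF3F HNRNPM stood below them and RBFOX2 close to them. Among the measured members, HNRNPM and RBFOX2 had the lowest log2 ratios (-3.34 and -2.94) and ESRP2 the highest (0.68). Large differences in these pairs therefore follow from the genes chosen and are no separate result.

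**Figure D3:**
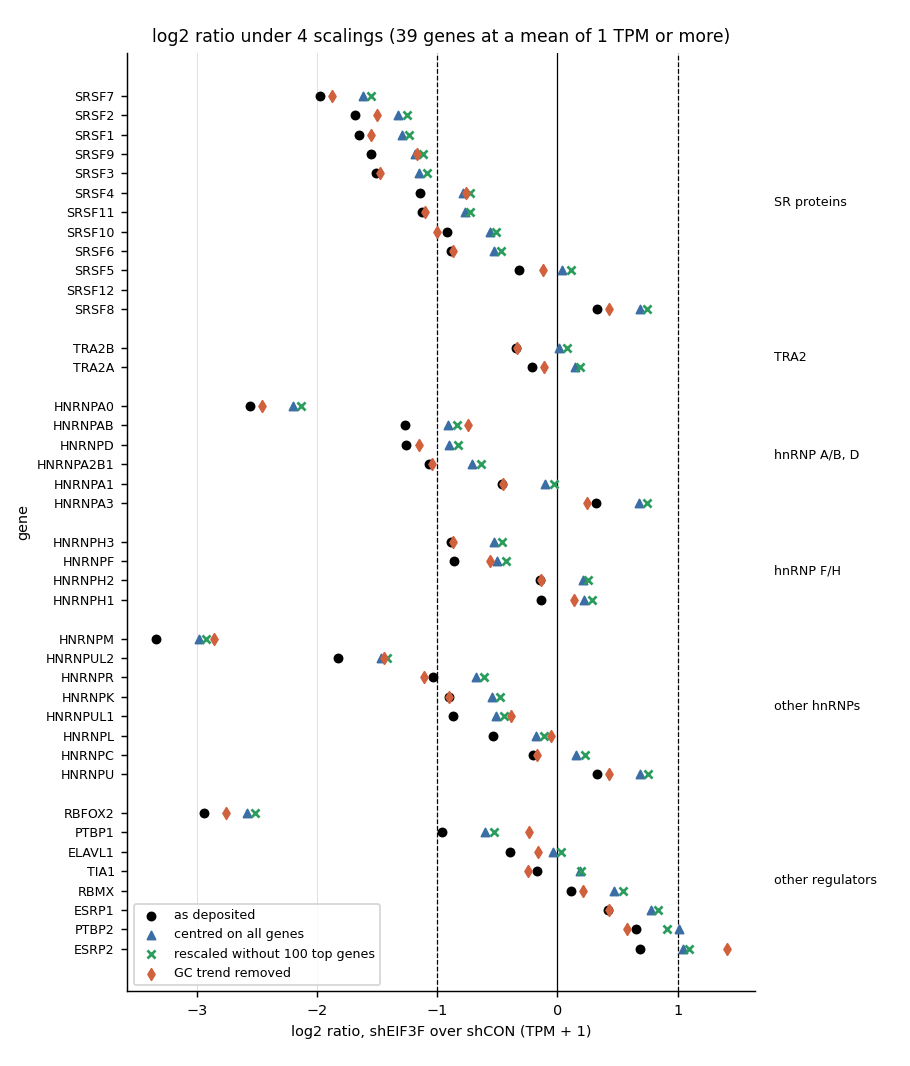
log2 ratio of shEIF3F over shCON for the 39 measured genes under 4 scalings, with dashed lines at 2-fold (SRSF12, not measured, has no point). The 9 genes HNRNPM, RBFOX2, HNRNPA0, SRSF7, HNRNPUL2, SRSF2, SRSF1, SRSF9 and SRSF3 lie left of -1 under every scaling shown, and ESRP2 lies right of 1 under 3 of them.

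Related genes were described from further lists. Of 13 kinases, arginine methyltransferases and import receptors that act on SR proteins and hnRNPs, 12 were measured, with a median log2 ratio of -0.39 near that of all genes. Of these, 1 (8.33%) was at least 2-fold lower and 1 (8.33%) higher, against 25.5% and 8.45% of all genes. After centring 0 were lower and 1 (8.33%) higher, against 16% and 14.7%. PRMT1, which methylates arginines of many hnRNPs, was the lower one, at 725 TPM in the control and 299 TPM in the depleted cells (-1.28, or -0.92 after centring). CLK1, a nuclear kinase of SR proteins, was the higher one, at 2.2 and 7.22 TPM (1.36, or 1.72 after centring). Other SR kinases were within 2-fold, among them SRPK1 at 10.3 and 4.67 TPM (-0.99) and CLK2 at 25.01 and 13.6 TPM (-0.83).

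Of 22 further hnRNP relatives, 8 (36.4%) were at least 2-fold lower and 0 higher, against 25.5% and 8.45% of all genes, with a median log2 ratio of -0.57. After centring 4 (18.2%) were lower, close to the 16% of all genes, and 0 higher. The poly(C)-binding protein PCBP2 stood at 545 TPM in the control and 69.1 TPM in the depleted cells (-2.96). TARDBP, which encodes TDP-43, a repressor of cryptic exons, stood at 70.0 and 9.19 TPM (-2.80). KHSRP, a decay and splicing factor, stood at 266 and 62.8 TPM (-2.06), and the RNA-binding protein TAF15 at 149 and 50.2 TPM (-1.55). All of these named genes were also past 2-fold after centring.

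Of 35 further splicing regulators, 26 were measured, 7 were at least 2-fold lower (26.9%, close to the 25.5% of all genes) and 0 higher, with a median log2 ratio of -0.56. After centring 5 (19.2%) were lower, against 16% of all genes, and 0 higher. ACIN1, a protein at the edge of the exon junction complex, stood at 86.6 TPM in the control and 21.3 TPM in the depleted cells (-1.98), RBM10, an exon repressor often mutated in lung cancer, at 32.8 and 9.52 TPM (-1.68) and the U2AF-related factor RBM17 at 28.4 and 9.66 TPM (-1.46). SRRM4, the activator of neural microexons that is also known from neuroendocrine prostate cancer, stood at 15.0 and 4.57 TPM (-1.53). Of 15 factors of nonsense-mediated decay and the exon junction complex, 3 (20%) were at least 2-fold lower and 0 higher. Over all genes the shares were 25.5% and 8.45%. The median of the 15 factors was -0.66. After centring 1 (6.67%) was lower and 0 higher, below the 16% and 14.7% of all genes, with a median of -0.31. SMG5, which binds phosphorylated UPF1, stood at 55.4 and 14.7 TPM (-1.85), the helicase UPF1 at 30.3 and 11.4 TPM (-1.34), the exon junction helicase EIF4A3 at 140.0 and 64.6 TPM (-1.10), and its partner MAGOH at 56.2 and 27.7 TPM (-0.99).

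**Figure D4:**
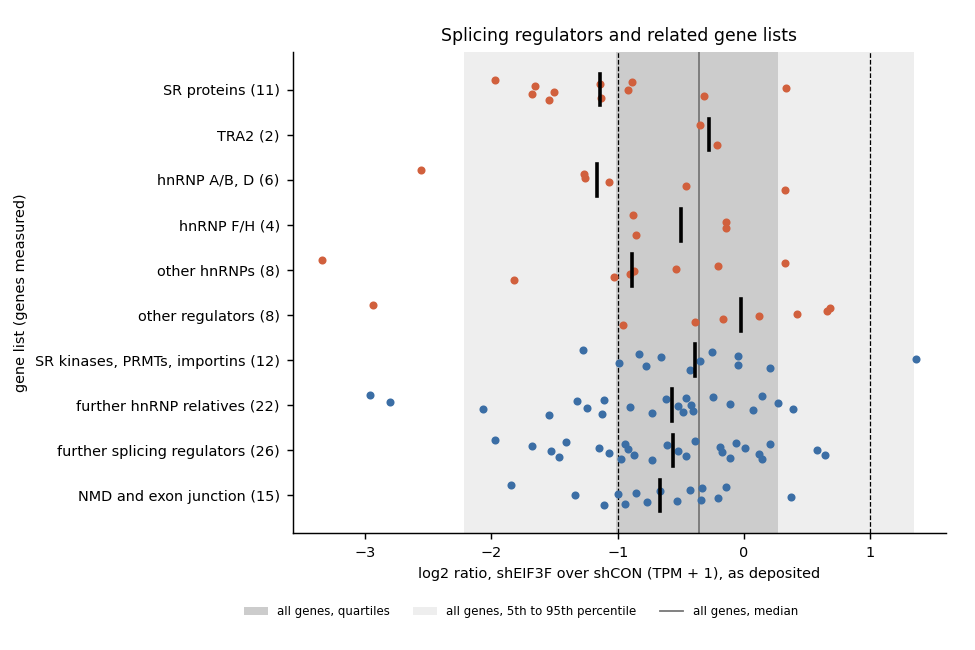
log2 ratio as deposited for the measured genes of 6 member families (orange) and 4 related lists (blue), with a black bar at each median and grey bands for all 13309 genes tested. The medians of the SR proteins (-1.14) and the hnRNP A/B and D group (-1.16) lie furthest to the left, beyond the lower quartile of all genes (-1.02).

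As a set, the members differed from the protein-coding genes tested in features of annotation that the choice of genes did not use. The sets were not matched for transcript level. In GENCODE release 29, 29 of the 39 measured members (74.4%) have at least 1 transcript annotated as a target of nonsense-mediated decay, against 44.3% of 11300 protein-coding genes tested, and 30 (76.9%) have a retained-intron transcript, against 58.6%. The median log2 ratio was -0.89 for members with a decay transcript and -0.87 for those without. The deposited table has 1 value per gene, so the use of such transcripts was not measured. The median GC content of the members' longest transcripts was 42.7%, against 50.3% for protein-coding genes. Across the 39 members Pearson's r of the log2 ratio with GC content was -0.15 and Spearman's rho -0.10, and across protein-coding genes they were -0.31 and -0.34. Genes in the same pair of libraries are not independent.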

How the data were processed

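The authors deposited 1 table with a TPM value per gene and library, to 2 decimals. Per the submitters' processing notes, CASAVA, HISAT2 and hg19 were used. No source used here gives the gene counter, the annotation, strand use or filters. Sample descriptions tied each column to its group. Of 58884 entries, 1533 repeat a symbol and were added to the first entry, and 27 entries turned into dates and 5531 small RNA symbols were left out. No member was affected. The 13309 genes averaging 1 TPM or more were tested, with a pseudocount of 1. Gene type, exon overlap, and the GC content and length of the longest transcript come from GENCODE release 29 (GRCh38); 97.9% of genes tested had a GC value, including all 39 measured members. For the GC and length alternatives, ratios were centred within 20 bins.

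All members are named, with up to 4 genes of largest absolute log2 ratio from each related list. The members and lists were chosen with earlier results of these data known. TPM keeps no read number, so no interval was computed. Calculations used Python 3.11.15, NumPy 2.4.6, pandas 2.3.3 and matplotlib 3.10.9, and were tested on simulated data.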

Additional observations from a re-analysis of the deposited data

How the results depend on the processing

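With 1 library per group no library could be left out, and no paired analysis was possible because the groups share no 2 replicate numbers. The count of members at least 2-fold lower was 15 as reported and lay between 12 and 15 with pseudocounts of 0.1 or 5, no filter on TPM, a mean of 5 TPM or more, the most abundant entry per symbol, or the GC trend removed (13). It was 9 after centring on the median of all genes, 9 after rescaling without the 100 most abundant genes and 9 with the length trend removed. The 9 genes that stayed lower under every alternative were SRSF1, SRSF2, SRSF3, SRSF7, SRSF9, HNRNPA0, HNRNPM, HNRNPUL2 and RBFOX2. No alternative changed how reads on shared exons were counted. Centring and rescaling raise every ratio by construction. The count of members at least 2-fold higher was 0 as reported, 2 after centring (ESRP2 and PTBP2), and 1 with a pseudocount of 0.1 (PTBP2), after rescaling, with the GC trend removed and with the length trend removed (ESRP2 in each). The median log2 ratio was -0.88 as reported, -0.90 with a pseudocount of 0.1, -0.80 with a pseudocount of 5, -0.88 with no filter, -0.53 after centring, -0.46 after rescaling, -0.56 with the GC trend removed and -0.48 with the length trend removed. No member past 2-fold changed sign under these alternatives. The unknown depth limits most the values of PTBP2, SRSF12 and TIA1.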

Other observations

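Processed pseudogenes that carry a member's name took up few transcripts. The table holds 126 such rows for 17 members, 75 of them for HNRNPA1, and 88 of the 126 were listed at 0 in both libraries. Their summed TPM was 9.87 in shCON and 5.72 in shEIF3F, and 3 rows reached a mean of 1 TPM: HNRNPA1P10 at 1.37 and 0.92 TPM, HNRNPA1P16 at 2.01 and 0.79 TPM, and HNRNPCP1 at 1.9 and 0.75 TPM. The rows named for HNRNPA1 summed to 0.518% of the HNRNPA1 level in shCON and 0.487% in shEIF3F, those for HNRNPC to 0.366% and 0.126%, and those for HNRNPA3 to 1.29% and 2.02%. How the authors' counting split reads between a gene and its copies is not given in the sources used here, so these shares describe the table only.

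When the 39 measured members were ordered by the GC content of their longest transcript, the 13 lowest (34.7% to 41.1%) had a median log2 ratio of -0.92, the 13 in the middle a median of -0.35, and the 13 highest (46.1% to 59.6%) a median of -0.87, all as deposited.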
